A study of Mus musculus with 2 samples.

Results

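The genes described here make fatty acids and assemble them into triglyceride, and they include the transcription factors and the cofactor that drive this programme. They were chosen by name, with earlier results of these data known, as the probe sets annotated to exactly 1 of 34 gene symbols. All 34 had at least 1 such probe set, out of 18193 genes with a symbol of their own on the array, and 80 probe sets represented them. Total RNA of mouse skeletal muscle was hybridised to 2 Affymetrix 430 2 arrays, 1 for wild-type mice and 1 for mice null for Jhdm2a, the histone H3 lysine 9 demethylase now named Kdm3a. Each array carried the combined RNA of 3 males aged 3 months. Animals of both genotypes derived from 129 embryonic stem cells, with 4 generations of backcrossing to C57BL/6. Which muscle was taken, how the allele was disrupted and whether it was disrupted outside muscle are not stated in the labels.

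Fatty acid synthesis starts in the cytosol, where acetyl-CoA is carboxylated to malonyl-CoA and fatty acid synthase builds palmitate from it with NADPH. Elongases and desaturases then lengthen the chain and set its double bonds. Triglyceride is made by adding acyl chains to glycerol 3-phosphate step by step, with a phosphate removed by the lipins before the last chain is attached. Fat and liver are the main sites of this programme, while skeletal muscle chiefly burns fatty acids and stores a small amount of triglyceride.

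The values are MAS5 signals, a linear measure of a probe set's brightness. A probe set counted as measured if both arrays exceeded a floor of 182. Log2 ratios put the array labelled null over the one labelled wild type, averaged per gene across its measured probe sets. Where 2 signals are given for a probe set, the wild-type-labelled array comes first. The probe set of Kdm3a read 406 and 488, 1.20-fold higher in the null-labelled RNA. Its place within the gene is unknown here, so it checks nothing about the labels, and the arrays are named by their labels throughout. With 1 pooled array per genotype there was no replicate check and no test. Errors below are SDs between probe sets of a gene, which are technical. The pooled SD was 0.29 over 3719 genes with several measured probe sets. It describes single probe sets around their gene mean, not a difference between genes, so multiples of it below are a scale and not a test. The SD of a single gene could differ from it, as for Acly at 0.06 and Scd1 at 1.91.

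All 15 muscle fibre markers examined were measured on both arrays, and their log2 ratios lay between -0.09 and 0.26. The skeletal actin Acta1 had 0.25 and the muscle creatine kinase Ckm 0.22. Markers of other tissues that run this programme were present too. Of 13 adipocyte markers, 11 had a probe set (Plin1 and Cfd had none with 1 symbol). All 11 exceeded the floor in the wild-type-labelled RNA and 9 in the null-labelled RNA. Their summed signal was 105977 and 41019 in that order. The mean ratios of the 9 measured were all below 0, between -5.71 and -0.67, with a median of -3.14. Of the 9, 8 were at least 2-fold lower. The other, Car3, had -0.67 ± 0.82 (SD of 4 probe sets), with probe sets of both signs. Its highest signal was 24357 in the wild-type-labelled RNA and 26112 in the null-labelled RNA. Both summed signals above include Car3. Adiponectin, Adipoq, had -3.32 and the brown fat uncoupling protein Ucp1 had -5.71. Of 14 hepatocyte markers, 13 had a probe set, of which 9 exceeded the floor in the wild-type-labelled RNA and 2 in the null-labelled RNA. Their summed signal was 17081 and 3023, with albumin, Alb, at -2.87 and the apolipoprotein Apoa1, which exceeded the floor in the wild-type RNA alone, at least 6.12-fold lower. The hepatocyte genes Ahsg, Fgb, G6pc and Tat were under the floor on both arrays. The median was 0.61 over 4 measured Schwann cell markers, -0.16 over 6 macrophage markers and 0.14 over 5 endothelial markers. It was -0.38 over 2 measured markers of epidermis and sebaceous gland, Krt79 at -0.93 and Krt10 at 0.17. In whole muscle RNA, fewer cells of a type and less RNA per cell cannot be told apart. The adipocyte and hepatocyte markers moved with the lipogenic genes below, and their part in those results was not tested.

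Lipogenic and triglyceride genes were lower on the null-labelled array at most steps of the pathway, but the steps were far from uniform. Of the 34 genes, 32 were measured, and 13 of these were at least 2-fold lower with all their probe sets of 1 sign, which is 40.6%. Over all 9696 measured genes 2.36% met the same rule. None of the 32 was at least 2-fold higher, against 0.371% of all measured genes. At 1.5-fold 18 were lower, where the share over all measured genes was 6.34%, and 0 were higher, where it was 3.38%. The median log2 ratio was -0.78 (1.72-fold lower), against 0.04 over all measured genes. In all 27 genes were below 0, a sign that 44.3% of all measured genes had. The 32 genes ran from -4.54 for Pck1 to 0.29 for Agpat5, so the set held both some of the lowest ratios on the arrays and genes whose signals were nearly equal. Of the 25 lowest genes among all 9696 measured, 6 belonged to this set of 32: Pck1, Elovl6, Agpat2, Fasn, Acly and Scd1. Scd1 was the last of the 25, at -3.22 ± 1.91 (SD of 2 probe sets), and its brighter probe set gave -1.87. The adipocyte markers, with a median of -3.14, were lower on the same array.

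**Figure D1:**
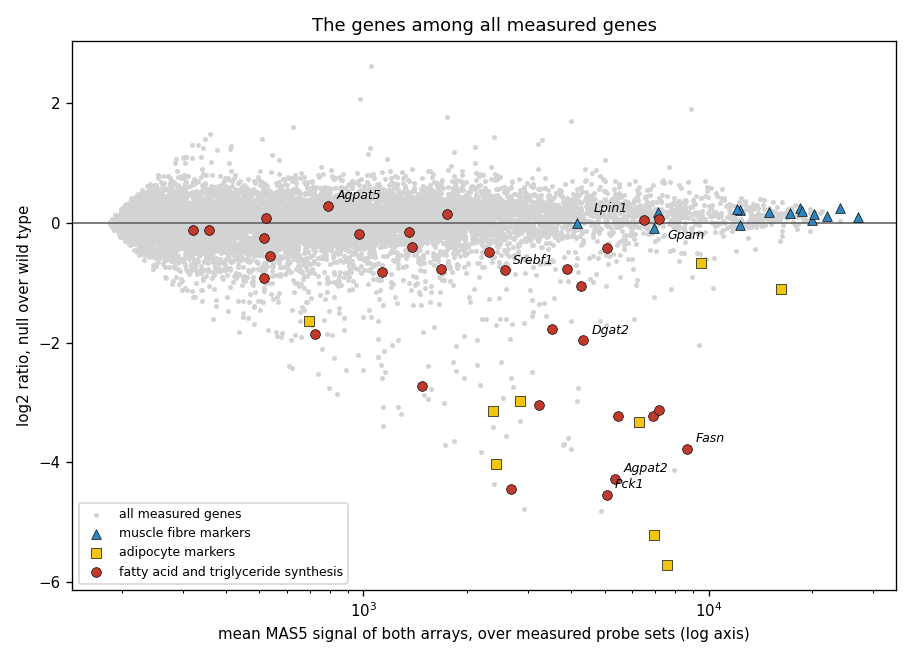
Each point is 1 measured gene, with the mean MAS5 signal of both arrays on a log axis and the log2 ratio of the null-labelled over the wild-type-labelled array on the other; red circles are the 32 measured genes of fatty acid and triglyceride synthesis, yellow squares 9 adipocyte markers and blue triangles 15 muscle fibre markers. The red points spread from Agpat5 at 0.29 down to Pck1 at -4.54, while the muscle fibre markers lie between -0.09 and 0.26.

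The enzymes that supply cytosolic acetyl-CoA were lower, and the malic enzyme that supplies NADPH much less so. Acly, the ATP citrate lyase that cleaves citrate into acetyl-CoA, read 13629, 12794 and 3206 in its 3 measured probe sets in the wild-type RNA against 1492, 1388 and 325 in the null-labelled RNA. Its 3 ratios lay close together, with a mean of -3.23 ± 0.06 (SD of 3 probe sets), 9.40-fold lower. Acss2, which makes acetyl-CoA from acetate, read 7079 and 3870 against 1980 and 1182, a mean of -1.77 ± 0.09 (SD of 2 probe sets). Me1, the cytosolic malic enzyme that yields NADPH, read 6243 and 5384 against 4612 and 4105, a mean of -0.41 ± 0.03 (SD of 2 probe sets). The ratios of Acly and Me1 stood 7.06-fold apart, which is 9.68 times the pooled SD of a probe set.

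All 3 genes of malonyl-CoA and palmitate synthesis were at least 2-fold lower. Fasn, the synthase that builds palmitate, read 16133 and, in the null-labelled RNA, 1182, a 13.6-fold lower signal (log2 ratio -3.77). The 2 acetyl-CoA carboxylases differed in the size of their ratios. Acaca, the cytosolic form that feeds fatty acid synthesis, read 5755 and 702, 8.19-fold lower. Acacb, the form at the outer mitochondrial membrane whose malonyl-CoA restrains fatty acid import, read 5768 and 2784, 2.07-fold lower. Each of the 3 rested on 1 measured probe set, so none has an SD. The ratios of the 2 carboxylases stood 3.95-fold apart, 6.81 times the pooled SD of a probe set.

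Of the 32 measured genes of the set, 8 had a mean ratio lower by 8-fold or more, against 0.330% of all 9696 measured genes. The promoter sequences of Fasn and Acly are shown because these genes were among the 8. Those of Acaca and Elovl6, also among the 8, are not shown and held no match to any motif searched. They are the 250 bases before each annotated gene start in RefSeq (GRCm38.p6), written 5′ to 3′ on the gene's strand. Capitals mark matches, on either strand, to the NF-Y box CCAAT and the GC box GGGCGG, the letters bound by NF-Y and Sp1.
Fasn (chr11:120824548-120824797, minus strand): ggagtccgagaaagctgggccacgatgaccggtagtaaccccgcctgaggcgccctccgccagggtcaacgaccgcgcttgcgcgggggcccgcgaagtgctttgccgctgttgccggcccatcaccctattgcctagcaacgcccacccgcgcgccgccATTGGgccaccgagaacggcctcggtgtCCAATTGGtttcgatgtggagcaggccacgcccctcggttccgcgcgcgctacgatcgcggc
Acly (chr11:100528001-100528250, minus strand): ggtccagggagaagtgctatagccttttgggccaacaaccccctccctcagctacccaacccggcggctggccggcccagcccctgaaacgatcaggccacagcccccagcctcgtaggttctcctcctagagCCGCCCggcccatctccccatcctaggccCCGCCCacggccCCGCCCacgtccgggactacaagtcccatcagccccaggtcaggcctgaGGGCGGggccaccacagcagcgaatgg
Fasn held 3 NF-Y boxes, of which the pair nearest the start overlapped, and no GC box. Acly held 4 GC boxes and no NF-Y box, so these 2 promoters shared neither motif in this window.

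Among the elongases and desaturases 1 gene of each kind, Elovl6 and Scd1, was at least 2-fold lower and the other measured ones were within 2-fold. Elovl6, which lengthens palmitate to stearate, read 5133 and 237 in its 1 measured probe set, 21.7-fold lower. A second Elovl6 probe set read 2863 in the wild-type RNA and, under the floor, 123 in the null-labelled RNA, at least 15.7-fold lower. On the null-labelled array Elovl6 thus lay just above the floor in 1 probe set and under it in the other. Elovl5, which elongates polyunsaturated chains, had -0.76 ± 0.08 (SD of 2 probe sets). Elovl1, which makes very long saturated chains, had 0.09 ± 0.10 (SD of 3 probe sets), with signals between 443 and 563 in the wild-type RNA against between 503 and 595 in the null-labelled RNA. The range of the Elovl1 signals overlapped between arrays, and its mean ratio was within its SD of 0.

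Scd1, the desaturase that places the first double bond in stearate and palmitate, gave a size that depended on the probe set. Its brighter probe set read 17182 and 4688, 3.66-fold lower, and the other read 5500 and 232, 23.7-fold lower. The mean was -3.22 ± 1.91 (SD of 2 probe sets), so Scd1 was lower in both, and its fold is known only within that span. Its paralog Scd2 read 2680 and 405 in the wild-type RNA against 1852 and 473 in the null-labelled RNA, and its 2 probe sets disagreed in sign, at -0.53 and 0.22. In the RefSeq gene order Scd3, Scd2, Scd4 and Scd1 follow one another with no coding gene between them, so Scd1 and Scd2, with ratios 8.38-fold apart, lie in 1 cluster. The front-end desaturases of polyunsaturated chains are also neighbours, in the order Fads3, Fads2 and Fads1. Fads1 had -0.25, from 560 and 472, and Fads3 had -0.12, from 334 and 308. A second Fads1 probe set, just under the floor in the wild-type RNA, read 179 and 272, and with it included the Fads1 mean was 0.17. Fads2 went unmeasured: its brightest probe set read 159 and 209, and no ratio is given.

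**Figure D2:**
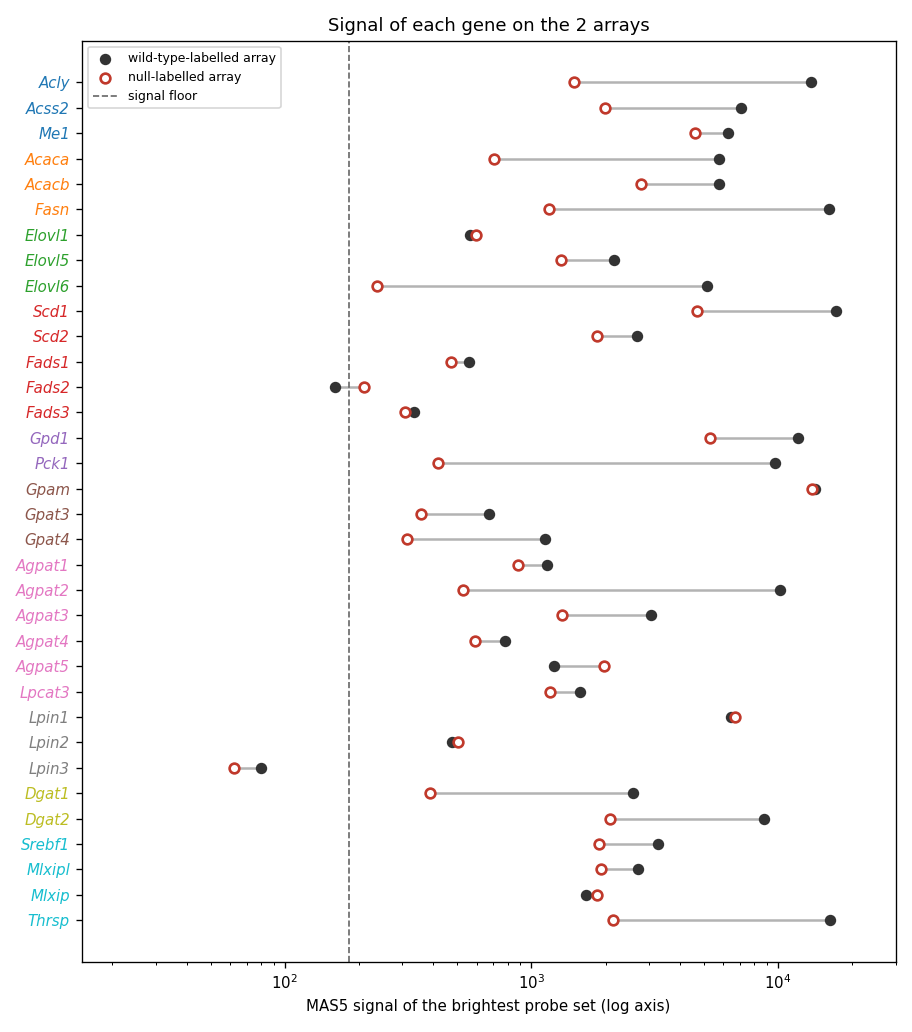
MAS5 signal of the brightest probe set of each of the 34 genes on a log axis, with filled points for the wild-type-labelled and open red points for the null-labelled array; the dashed line is the floor of 182, and gene names are coloured by role. Fasn, with 16133 and 1182, and Gpam, with 14150 and 13695, are a gene with a wide gap between the arrays and a gene with nearly none.

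Glycerol 3-phosphate, the backbone of triglyceride, comes from glycolysis through Gpd1 or from smaller precursors through Pck1. Pck1, the cytosolic phosphoenolpyruvate carboxykinase, read 9718 and 417, 23.3-fold lower and the lowest ratio in the set. A second Pck1 probe set read 1773 in the wild-type RNA and 87, under the floor, in the null-labelled RNA, at least 9.73-fold lower. With that signal set to the floor and this probe set included, the Pck1 mean was -3.91. Gpd1, the cytosolic glycerol 3-phosphate dehydrogenase that muscle also uses in its electron shuttle, had -0.77 ± 0.47 (SD of 3 probe sets). Its brightest probe set read 12039 and 5291, 2.28-fold lower, and its dimmest measured one 491 and 408, 1.20-fold lower. So Gpd1 was lower in all 3 probe sets, and it reached 2-fold only in the brightest.

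The first acylation of glycerol 3-phosphate is catalysed by several isoenzymes, of which 3 belong to this set, and their ratios ranged from near 0 to well below it. Gpam, a mitochondrial form, read 14150 and 397 in the wild-type RNA against 13695 and 446 in the null-labelled RNA. Its mean was 0.06 ± 0.15 (SD of 2 probe sets), and its sign turned under loess scaling, at the higher floor, and when the brightest or the unshared probe set alone was used. Gpat4, a form of the endoplasmic reticulum, read 1132 and 313, 3.62-fold lower. Gpat3, the other such form, read 672 and 357, 1.88-fold lower. Gpat4 and Gpam stood 3.77-fold apart, 6.58 times the pooled SD of a probe set, while Gpat3 and Gpat4 stood 1.92-fold apart.

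The second acylation held ratios from -4.27 to 0.29. Agpat2, the lysophosphatidic acid acyltransferase whose loss causes lipodystrophy, read 10195 and 527, 19.3-fold lower. Agpat1, the broadly expressed form, read 1152 and 920 against 883 and 922, a mean of -0.19 ± 0.27 (SD of 2 probe sets). Agpat1 and Agpat2 catalyse the same reaction, and their ratios stood 16.9-fold apart. Agpat3 had -0.82 ± 0.57 (SD of 4 probe sets), with all 4 below 0 and its brightest at 3052 and 1324, 2.30-fold lower. Agpat4 had -0.55 ± 0.19 (SD of 2 probe sets). Agpat5, a mitochondrial member of the family, was the highest gene of the set at 0.29 ± 0.35 (SD of 3 probe sets), with 1 of its 3 probe sets at -0.02. Its brightest probe set read 1234 and 1971, a log2 ratio of 0.68, which is more than 1.5-fold higher. Lpcat3, which places polyunsaturated chains into phosphatidylcholine rather than into triglyceride, read 1576 and 1188, a log2 ratio of -0.41.

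The lipins, which remove the phosphate to give diacylglycerol, had nearly equal signals on both arrays. Lpin1, the main lipin of muscle and fat, read 6453 and 6330 against 6673 and 6509, a mean of 0.04 ± 0.01 (SD of 2 probe sets). After loess scaling it was -0.06, so its direction is not read. Lpin2 had -0.11 ± 0.27 (SD of 2 probe sets), with probe sets of opposite sign. Lpin3 read 80.0 and 62.2, under the floor on both arrays, and no ratio is given.

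Both diacylglycerol acyltransferases, which attach the last chain, were at least 2-fold lower. Dgat1 read 2568 and 389, 6.60-fold lower, from 1 measured probe set. Dgat2, unrelated to it in sequence, read 8792 and 5023 in the wild-type RNA against 2089 and 1396 in the null-labelled RNA, a mean of -1.96 ± 0.16 (SD of 2 probe sets), 3.89-fold lower. The last step was thus lower in both of its genes, in contrast to the lipin step before it.

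**Figure D3:**
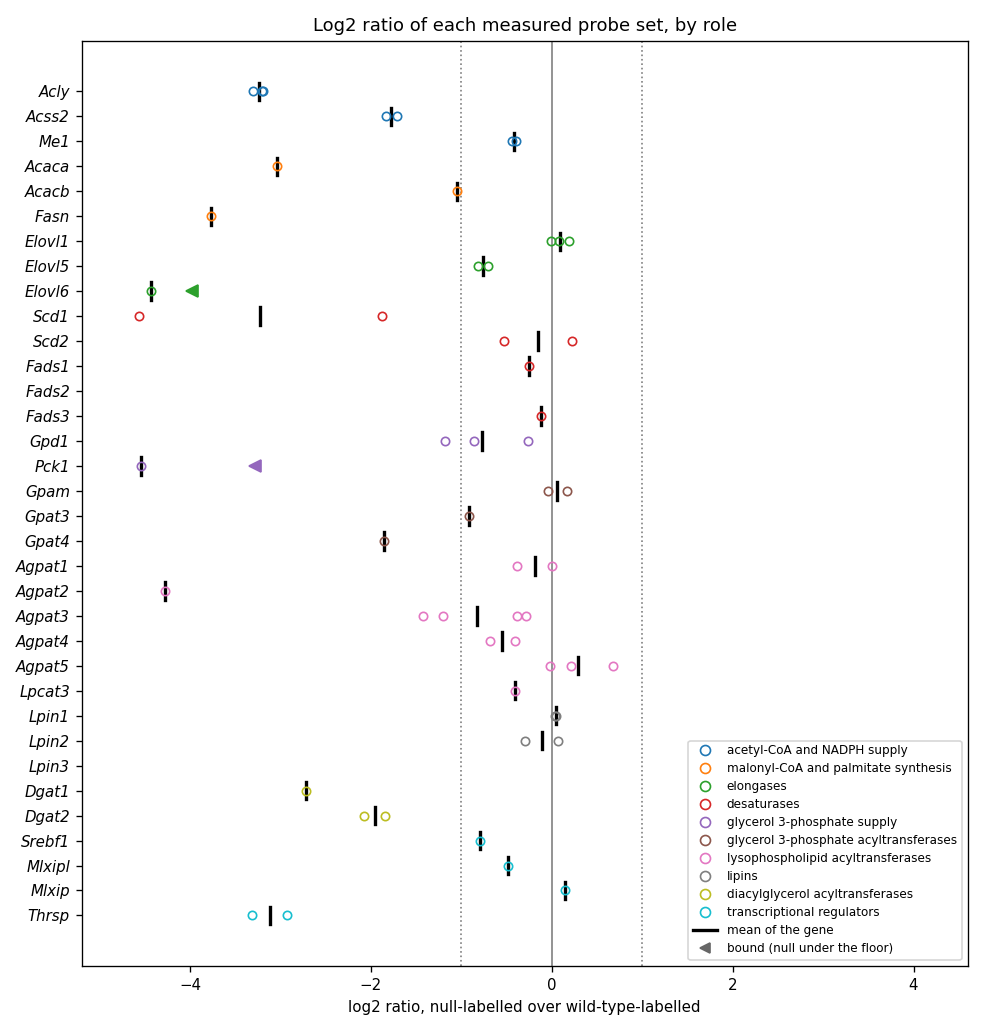
Log2 ratio of every measured probe set (open circles, coloured by role), with a black bar at the mean of each gene and a triangle where the null-labelled signal was under the floor and only a bound can be given; dotted lines mark 2-fold. Acly and Dgat2 have probe sets that lie together, at -3.23 ± 0.06 and -1.96 ± 0.16, while those of Scd1 are spread around -3.22 ± 1.91; Fads2 and Lpin3 have no measured probe set.

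The 3 transcription factors of the programme were within 2-fold, and the cofactor Thrsp was 8.69-fold lower. Thrsp, also called Spot 14, a small protein induced with lipogenesis, read 16178 and 9511 in the wild-type RNA against 2133 and 955 in the null-labelled RNA. Its mean was -3.12 ± 0.28 (SD of 2 probe sets). Srebf1, which encodes the sterol regulatory element binding protein of fatty acid synthesis genes, read 3257 and 1883, 1.73-fold lower. Srebf1 makes several transcripts, and which of them its 1 probe set detects was not examined. Mlxipl, which encodes the glucose-sensing factor ChREBP, read 2693 and 1919, 1.40-fold lower. Its relative Mlxip, also called MondoA and abundant in muscle, read 1661 and 1836, a log2 ratio of 0.14. The ratios of Fasn and Srebf1 stood 7.89-fold apart, 10.2 times the pooled SD of a probe set, and those of Thrsp and Srebf1 5.03-fold apart.

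The RefSeq promoter table held 36 promoters of 26 of the 34 genes, and 9 of the 13 genes at least 2-fold lower. Thrsp, Agpat2 and Pck1 are shown because they were lower by at least 8-fold at 3 different steps, and the second Mlxipl start because it is the 1 promoter of the set with a sterol regulatory element, TCACNCCAC, which SREBP binds. The window, strand and capitals are as for Fasn and Acly, with this element also in capitals.
Thrsp (chr7:97417551-97417800, minus strand): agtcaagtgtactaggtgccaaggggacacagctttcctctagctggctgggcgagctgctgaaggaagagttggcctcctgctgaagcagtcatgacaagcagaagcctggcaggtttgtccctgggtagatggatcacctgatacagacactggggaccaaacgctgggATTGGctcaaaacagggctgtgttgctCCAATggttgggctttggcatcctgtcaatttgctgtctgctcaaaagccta
Agpat2 (chr2:26604418-26604667, minus strand): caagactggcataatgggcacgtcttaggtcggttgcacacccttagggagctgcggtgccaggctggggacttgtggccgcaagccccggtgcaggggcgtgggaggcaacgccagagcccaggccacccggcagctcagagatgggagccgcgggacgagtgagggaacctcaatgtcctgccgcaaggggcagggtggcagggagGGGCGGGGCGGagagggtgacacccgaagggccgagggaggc
Pck1 (chr2:173152823-173153072, plus strand): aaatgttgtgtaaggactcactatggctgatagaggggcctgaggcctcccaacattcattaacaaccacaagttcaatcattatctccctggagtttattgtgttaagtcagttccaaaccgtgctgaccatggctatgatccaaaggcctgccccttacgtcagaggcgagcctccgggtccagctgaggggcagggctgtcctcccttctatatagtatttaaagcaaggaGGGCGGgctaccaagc
Mlxipl (chr5:135106641-135106890, plus strand): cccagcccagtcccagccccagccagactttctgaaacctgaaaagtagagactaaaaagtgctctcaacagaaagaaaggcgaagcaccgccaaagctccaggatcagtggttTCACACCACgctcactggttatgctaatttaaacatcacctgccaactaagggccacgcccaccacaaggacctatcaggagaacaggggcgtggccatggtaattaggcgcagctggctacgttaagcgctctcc
Thrsp held 2 NF-Y boxes, Agpat2 held 2 GC boxes that overlap, and Pck1 held 1 GC box. The promoters of Acaca and Elovl6, lower by at least 8-fold too, are not shown and held no match to any motif searched. Scd1, whose mean was also lower by at least 8-fold, had no promoter in the table. Over the promoters of the 9 lower genes, 44.4% held an NF-Y box and 44.4% a GC box. Over the 24 promoters of the other measured genes of the set these shares were 54.2% and 62.5%, and over all 32851 promoters of the table they were 33.8% and 32.7%. The sterol regulatory element was found in 2.78% of the set's promoters and 1.05% of all promoters, and the palindromic E-box CACGTG in 8.33% and 6.02%. Promoters of the 9 lower genes held neither of these in this window. The LXR element, a direct repeat, was found in none of the set's promoters and in 0.0152% of all. A match is a description of letters only, and an absent match says nothing about a factor.

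Genes next to this pathway were taken from lists of 95 further genes, chosen with earlier results of these data known. Of these 68 were measured, 14 of them (20.6%) at least 2-fold lower and 0 at least 2-fold higher, where the shares over all measured genes were 2.36% and 0.371%. Their median was -0.21, against 0.04 over all measured genes. The list for citrate export, NADPH and acetate held 4 of the 14 among 8 measured genes. Slc25a1, the carrier that exports citrate from mitochondria to Acly, read 7091 and 545, 13.0-fold lower. Pgd, which makes NADPH in the pentose phosphate pathway, gave -2.74 ± 0.28 (SD of 4 probe sets), and Idh1, the cytosolic isocitrate dehydrogenase, -1.48 ± 0.36 (SD of 2 probe sets). Acss1, the mitochondrial acetate-activating enzyme, had -1.12, and it was -0.54 when a probe set just above the floor on 1 array was included. Along the route from mitochondrial citrate to palmitate, Slc25a1, Acly, Acaca and Fasn were each at least 8-fold lower, while Me1 was 1.33-fold lower.

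The elongation cycle beside Elovl6 held 2 genes at least 2-fold lower of 9 measured. Hacd2, a 3-hydroxyacyl-CoA dehydratase of the cycle, had -2.77 from 1 measured probe set, and -2.03 when a second one, at 446 and 178, was included at the floor. Hsd17b12, the 3-ketoacyl-CoA reductase of the cycle, had -2.32 ± 0.61 (SD of 2 probe sets). Elovl3, an elongase of very long chains that is abundant in brown fat, read 2092 and, under the floor, 114, at least 11.5-fold lower. Of 7 measured genes listed as acyl-CoA synthetases, 2 were at least 2-fold lower, Acsl5 at -2.93 and the mitochondrial Acsf3 at -1.46. Another 2, Acsl6 at 0.75 and Acsl4 at 0.61, were at least 1.5-fold higher, as were 3.38% of all measured genes. Slc27a2, a very long-chain acyl-CoA synthetase of liver and kidney, read 2316 and, under the floor, 22.5, at least 12.7-fold lower. Of 8 other glycerolipid genes the 1 at least 2-fold lower was Gpd2, the mitochondrial glycerol 3-phosphate dehydrogenase, at -1.70 ± 1.19 (SD of 3 probe sets), and the next in size was Mboat7 at -0.38. The size for Gpd2 depended on the probe set: the brightest gave -0.53, within 2-fold, and the unshared ones a mean of -1.10. The phospholipid branch had a median of -0.35 over 14 genes. Its 1 gene at least 2-fold lower was the cardiolipin synthase Crls1 at -1.34 ± 0.15 (SD of 2 probe sets), followed by the cholinephosphotransferase Chpt1 at -0.99 ± 0.44 (SD of 4 probe sets). Mitochondrial fatty acid synthesis, a separate pathway that makes the precursor of lipoic acid, had a median of -0.20 over 8 genes. Mecr, its enoyl reductase, had -1.57 ± 0.18 (SD of 2 probe sets) and the octanoyl transferase Lipt2 0.42.

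Upstream of the enzymes, 3 of 14 measured genes for SREBP processing and lipogenic factors were at least 2-fold lower, with a list median of -0.15. Insig1, which holds SREBP in the endoplasmic reticulum and is itself a target of SREBP, read 3579 and 691, 5.18-fold lower. Cebpa, a transcription factor of fat and liver, had -3.14, and Ppara, a nuclear receptor of fatty acid oxidation, had -1.27 ± 0.16 (SD of 3 probe sets). Pparg, the receptor that drives fat cell formation, exceeded the floor in the wild-type RNA alone, at 983, and was at least 5.40-fold lower. Cebpa and Pparg stand in the adipocyte marker list too, whose median was -3.14.

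**Figure D4:**
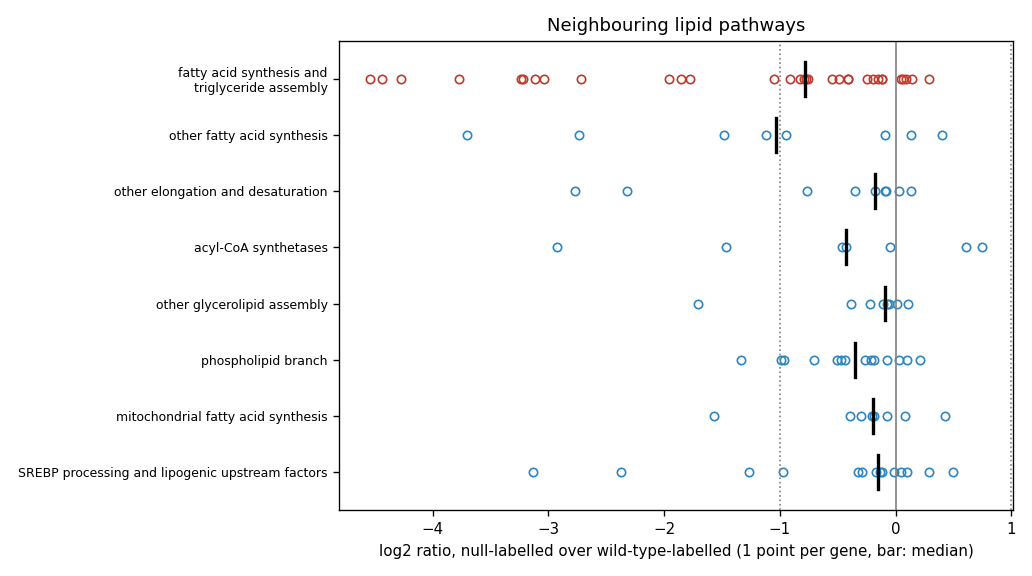
Log2 ratio of each measured gene in the fatty acid and triglyceride set (red) and in 7 lists of neighbouring pathways (blue), 1 point per gene with a black bar at the median; dotted lines mark 2-fold. The median of the set is -0.78, and those of the mitochondrial fatty acid synthesis and phospholipid lists are -0.20 and -0.35.

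Leaving out the signal floor, which lets dim probe sets into the gene means, reduced the number of these genes at least 2-fold lower from 13 to 8. Over all genes the share at least 2-fold lower was 8.38% without the floor and 2.36% with it. The 5 genes no longer counted were Acly, Acss2, Elovl6, Pck1 and Gpat4, each of which gained a dim probe set with a ratio above 0. Without the floor their means were -1.87, -1.02, -2.85, -2.88 and -0.68 in that order, and those of Acaca, Dgat1 and Thrsp were -1.77, -1.52 and -2.32. Of the 80 probe sets 55 were measured, 21 were under the floor on both arrays and 4 were above it on 1 array. With the floor at 467, Elovl6, Pck1, Dgat1, Gpat3, Gpat4 and Fads3 had no measured probe set, and Scd1 was -1.87. Of the 26 still measured, 10 were 2-fold lower or more, where the share over all genes measured at that floor was 1.72%. Among the 10 was Gpd1 at -1.03, which was within 2-fold at the lower floor.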

How the data were processed

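The authors deposited 1 linear intensity value for each probe set and array, made with MAS5 per the submitters' processing notes (version not given). Both columns had a 2% trimmed mean of 500.0, so the deposited intensity values were already on a common scale, and 0 columns belonged to other samples. RNA was pooled before labelling, per the series' design text. No detection calls were used, so a floor at the 60th percentile of the 45037 non-control probe sets, 182, stood in for them, with the 64 control probe sets excluded.

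Of the non-control probe sets, 34945 had 1 gene symbol, 932 several and 9160 none in the platform annotation, and only the first kind was used. A gene's log2 ratio was the mean over probe sets above the floor on both arrays. It was counted at 2-fold when these had 1 sign. Bounds were the brighter signal, at 2 times the floor or more, over the floor. Summed marker signals used the brightest probe set of each gene. No p-value was computed, because neither genotype has a second array, and the number of arrays limits the precision. All 34 genes are named. In each neighbouring list the 2 measured genes with the largest absolute log2 ratio and all measured ones at least 2-fold lower or higher are named. Elovl3, Slc27a2 and Pparg, the genes of these lists with a bound in place of a ratio, are not covered by this rule and were picked with their values known. The same holds for Acsl4 and Acsl6. The genes and lists were chosen with earlier results of these data known. Alternatives were quantile, median and loess (span 0.4) scaling, 3 other filters, the brightest probe set, unshared probe sets and a pseudocount of 100. The calculation was tested on simulated data. Python 3.11.15, numpy 2.4.6, pandas 2.3.3 and statsmodels 0.14.6 were used.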

Additional observations from a re-analysis of the deposited data

How the results depend on the processing

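The count of genes at least 2-fold lower was 13 as reported and lay between 10 and 15 in 8 of the 9 alternatives. It was 8 with no filter on low signals, where the share over all genes was 8.38% in place of 2.36%. In the other alternatives that share lay between 1.72% and 2.88%. No gene of the set was at least 2-fold higher in any of the 9 alternatives, and the median lay between -0.88 and -0.65. The share of all genes at least 2-fold higher was 5.13% with no filter. It lay between 0.168% and 0.447% in the other alternatives. The scalings tried shifted the median of all measured genes by at most 0.05 in size. No gene at least 2-fold lower changed sign in any alternative. Fads1, Gpam, Lpin1 and Lpin2, all within 1.5-fold, changed sign in some. Gpd1 and Agpat3 reached 2-fold with the brightest probe set of each gene, at -1.19 and -1.20. Gpd1 also did so at the higher floor and with unshared probe sets, at -1.03 in both. No paired analysis was possible because each genotype has 1 pooled array. Signals near the floor limit the size of the largest folds, as for Elovl6, which was -4.44 as reported and -3.96 with a pseudocount of 100.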
